A study of Homo sapiens with 6 samples.

Results

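The genes described here are the chemokines, the interleukins and their receptors, taken by symbol: every autosomal protein-coding gene whose symbol starts with CCL, CXCL, CCR, CXCR or IL followed by a digit. The rule gave 135 of the 19229 autosomal protein-coding genes with an annotated start on hg19 (GRCh37), namely 29 CC chemokines, 14 CXC chemokines, 15 chemokine receptors, 33 interleukin receptor subunits and 44 interleukins with their binding and antagonist proteins. On hg38 (GRCh38) starts were recorded for 132 of them among 18978 genes. The 3 without one, CCL3L1, CCL4L1 and CCL4L2, are near-identical copies of CCL3 and CCL4, so that reads could not be placed with certainty at any of these genes, nor at CCL3L3. A promoter peak is a listed peak that reached within 1 kb of any annotated transcript start of the gene, on the genome build of its own list.

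By the labels the cells were OCI-AML3, an established human acute myeloid leukemia line that carries mutant NPM1 (mtNPM1). In the sgNeg group the cells were transfected with a negative control guide RNA, and in the sgNpm1A group with a guide RNA against the mutant allele. Both groups were cultured alike otherwise, for 72 hours (3 days) by the labels, while the methods text gives a longer time. Chromatin of each group was profiled once for H3K27Ac and once for H3K4me3 by ChIPmentation, in which a transposase adds the sequencing adapters to the precipitated chromatin, and the deposited lists of enriched regions are the data used. With 1 library per mark and guide there is no replicate, so no difference between the guides has a test and how completely mtNPM1 was lost in them cannot be read from these lists.

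Chemokines are small secreted proteins that steer the migration of leukocytes through G protein-coupled receptors. CC and CXC chemokines are named for the spacing of their conserved cysteines, and the receptors CCR and CXCR are named for the class they bind. Interleukins act through receptor subunits that pair on the cell surface and signal through JAK kinases and STAT factors or, in the families of IL1 and IL17, through adaptor proteins toward NF-kappa B. Myeloid cells are both a source and a target of many of these proteins. H3K27Ac marks active promoters and enhancers, and H3K4me3 marks the promoters of genes that are transcribed or poised.

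The H3K27Ac lists hold broad regions on hg19 (327715 in sgNeg and 317059 in sgNpm1A), and the H3K4me3 lists hold narrow peaks on hg38 (353628 and 106641), so widths are compared within a mark only. The shares of listed peaks with a q-value under 1e-05, called strict peaks from here on, were 2.88% and 0.908% for H3K27Ac and 23.0% and 13.9% for H3K4me3. Strength is given as the fold enrichment that the peak caller wrote and as its percentile, the share of all peaks of the same list at or below that fold. Of 10 myeloid marker genes, 3 (MPO, SPI1 and CEBPA) carried a strict H3K27Ac promoter peak in sgNeg and 6 a strict H3K4me3 peak, against 0 and 2 of 5 T cell markers, 0 and 1 of 5 B cell markers, 1 and 0 of 5 erythroid, 0 and 3 of 5 epithelial and 0 and 0 of 5 fibroblast markers. Over all coding genes the sgNeg shares were 36.8% and 60.5%, so the myeloid shares (30% and 60%) did not exceed the background. In the sgNpm1A lists strict H3K27Ac peaks were found at 0 of these 35 markers, against 0.941% of all coding genes, and strict H3K4me3 peaks at 2 of 5 T cell markers (CD3D and CD247), 1 of 5 fibroblast markers and 0 of the others, the 10 myeloid ones included, against 5.59%. The labels name OCI-AML3 for every sample, but the H3K27Ac lists carry the tag OCI2 and the H3K4me3 lists the tag OCI3. The study also used OCI-AML2, a line without mtNPM1. What the tags mean is not stated, and whether the lists of both marks come from the same line was not tested, which bears on every H3K27Ac value and every count over both marks.

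In control cells most of these genes had some promoter peak, but few carried a strong one. A listed H3K27Ac promoter peak was present at 100 of 135 members (74.1%, Wilson 95% interval 66.1 to 80.7%), against 81.2% of all coding genes. A strict H3K27Ac peak was present at 15 of 135 (11.1%, 6.85 to 17.5%), against 36.8% of all genes. For H3K4me3 the counts were 78 of 132 with any peak (59.1%, 50.6 to 67.1%), against 78.1%, and 40 of 132 with a strict peak (30.3%, 23.1 to 38.6%), against 60.5%. These intervals cover counting error over genes only. For strict peaks of both marks the members' shares thus lay below the background by more than that error. Members have fewer annotated starts, a median of 3 against 5 for all genes. Among genes with 1 to 3 starts, H3K27Ac was strict at 8.57% of members and 20.8% of all genes, and listed at any strength at 70% and 63.6%. H3K4me3 was strict at 15.7% and 37.8% of them, and listed at 48.6% and 59.2%.

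Every role held some strict peaks of both marks in control cells. Strict H3K27Ac peaks were found at 1 of 29 CC chemokines (3.45%), 3 of 14 CXC chemokines (21.4%), 2 of 15 chemokine receptors (13.3%), 5 of 33 interleukin receptor subunits (15.2%) and 4 of 44 interleukins (9.09%). Strict H3K4me3 peaks were found at 4 of 26 CC chemokines (15.4%), 3 of 14 CXC chemokines (21.4%), 4 of 15 chemokine receptors (26.7%), 11 of 33 receptor subunits (33.3%) and 18 of 44 interleukins (40.9%). The Wilson intervals of the 5 roles overlapped for both marks, so no order among the roles is read from these counts.

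**Figure D1:**
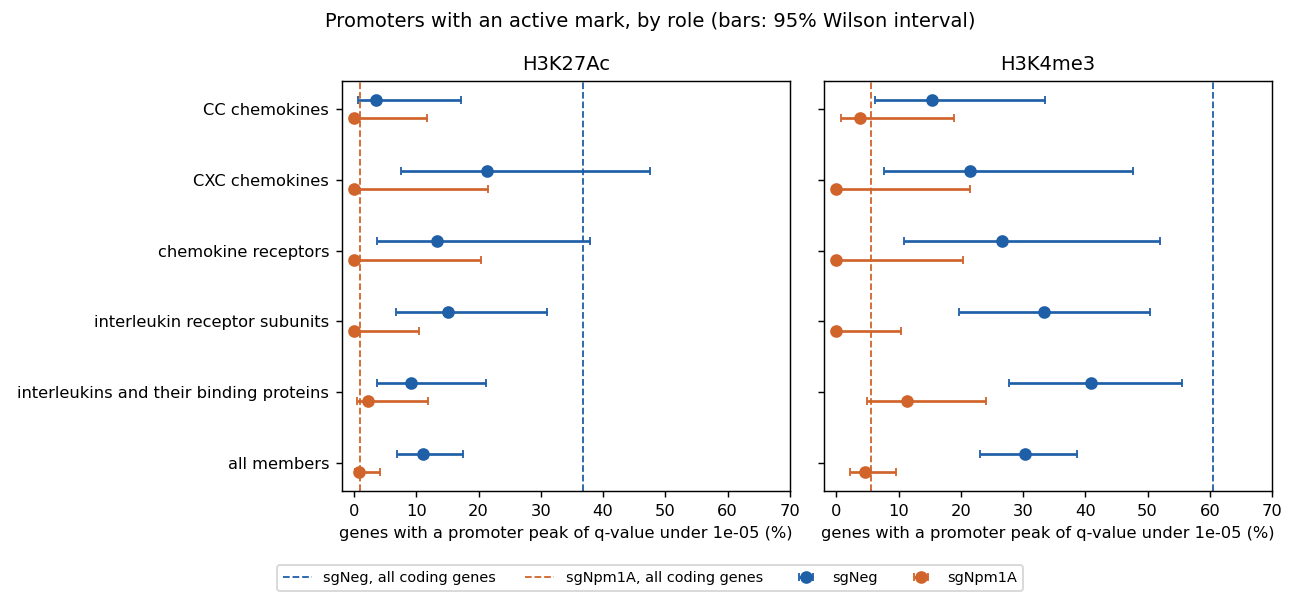
Share of genes with a strict promoter peak (q-value under 1e-05), in percent, by role, in the 4 lists; points are shares, bars are 95% Wilson intervals and the dashed line is the share of all autosomal protein-coding genes. In sgNeg the members as a whole sit at 11.1% for H3K27Ac and 30.3% for H3K4me3, below the dashed lines at 36.8% and 60.5%; in sgNpm1A they sit at 0.741% and 4.55%, near the lines at 0.941% and 5.59%.

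Strict peaks of both marks in sgNeg were carried by 10 of 132 members (7.58%), against 34.9% of all genes. The 10 were CXCR4, CCR1, CXCL1, IL17RA, IL10RB, IL1RN, IL23A, IL4I1, IL5 and IL5RA. Counting any listed peak, 70 members had both marks (53.0%, against 73.4%), 30 H3K27Ac alone (22.7%, against 8.5%), 8 H3K4me3 alone (6.06%, against 4.68%) and 24 neither (18.2%, against 13.4%). The 30 with H3K27Ac alone include 13 CC chemokines, among them CCL2, CCL3 and CCL5. H3K27Ac alone was strict at 5 members, CCL27, CXCL2, CXCL8, IL12RB1 and IL31RA (3.79%, against 2.3% of all genes), and H3K4me3 alone at 30 (22.7%, against 25.6%). At 87 members (65.9%, against 37.2%) neither mark was strict. The windows printed next are the 250 bases before the RefSeq start (GRCh38.p14) of CXCR4, IL5RA and CXCL1, the 3 members with an entry that had the highest mean sgNeg percentile of both marks, of CXCL8, added after its values were seen because it has the widest H3K27Ac peak, and of IL6 and CXCR2, known myeloid genes without a strict peak. The IL5RA window precedes its canonical start, at which no list held a peak, its counted peaks lying at another start. Neither IL17RA nor CCL2 has an entry. Capitals mark matches, on either strand, to 4 short motifs. The kappa B type is GGGNNNNNCC, which 54.4% of 35114 RefSeq promoters of this length hold. The STAT type is TTCNNNGAA, held by 6.57%, and the ETS type is GGAAGT, held by 19.5%. The core promoter box is spelled TATAAA and is held by 10.7%.
CXCR4, chr2:136118150-136118399, hg38, minus strand: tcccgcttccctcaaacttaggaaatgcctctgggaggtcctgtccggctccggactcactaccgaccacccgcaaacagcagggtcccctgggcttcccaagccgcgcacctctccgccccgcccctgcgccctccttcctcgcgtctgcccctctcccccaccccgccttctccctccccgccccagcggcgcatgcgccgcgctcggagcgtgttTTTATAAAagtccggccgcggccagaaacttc
IL5RA, chr3:3110375-3110624, hg38, minus strand: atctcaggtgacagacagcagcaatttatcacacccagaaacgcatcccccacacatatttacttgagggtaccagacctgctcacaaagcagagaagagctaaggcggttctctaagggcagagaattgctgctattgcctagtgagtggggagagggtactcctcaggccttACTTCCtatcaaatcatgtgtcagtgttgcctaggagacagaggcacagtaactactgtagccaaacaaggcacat
CXCL1, chr4:73869143-73869392, hg38, plus strand: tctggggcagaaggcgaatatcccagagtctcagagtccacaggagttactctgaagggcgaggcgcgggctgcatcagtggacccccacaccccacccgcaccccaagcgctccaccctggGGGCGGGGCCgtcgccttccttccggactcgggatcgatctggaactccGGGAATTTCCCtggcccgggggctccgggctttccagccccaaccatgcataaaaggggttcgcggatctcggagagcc
CXCL8, chr4:73740319-73740568, hg38, plus strand: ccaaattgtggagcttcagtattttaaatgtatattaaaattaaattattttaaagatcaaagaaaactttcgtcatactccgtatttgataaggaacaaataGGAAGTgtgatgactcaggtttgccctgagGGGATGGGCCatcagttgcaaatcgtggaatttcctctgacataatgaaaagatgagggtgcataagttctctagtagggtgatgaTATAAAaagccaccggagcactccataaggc
IL6, chr7:22726950-22727199, hg38, plus strand: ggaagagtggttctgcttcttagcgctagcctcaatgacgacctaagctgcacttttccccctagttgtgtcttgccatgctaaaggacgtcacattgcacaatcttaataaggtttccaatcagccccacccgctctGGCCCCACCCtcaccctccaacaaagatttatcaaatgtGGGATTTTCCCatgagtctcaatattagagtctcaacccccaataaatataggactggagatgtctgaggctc
CXCR2, chr2:218125778-218126027, hg38, plus strand: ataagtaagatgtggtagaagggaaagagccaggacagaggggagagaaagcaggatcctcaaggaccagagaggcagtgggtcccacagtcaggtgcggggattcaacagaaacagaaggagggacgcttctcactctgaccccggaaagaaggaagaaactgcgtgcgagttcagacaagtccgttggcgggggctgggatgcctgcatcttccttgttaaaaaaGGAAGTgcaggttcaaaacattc

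Positions are counted back from the start, as negative numbers. The CXCR4 window holds 2 overlapping core promoter box matches on opposite strands between -32 and -25, and CXCL8 holds 1 from -31 to -26. Kappa B type matches lay in CXCL1 (-128 to -119, and 2 overlapping ones from -79 to -69), CXCL8 (-117 to -108) and IL6 (-112 to -103, and 2 overlapping ones from -73 to -63). An ETS type match lay in IL5RA (-76 to -71), CXCL8 (-147 to -142) and CXCR2 (-23 to -18), and no window held the STAT type letters. The matches are a description of these letters only. CXCL1 and CXCL8, with strict H3K27Ac, and IL6, without a sgNeg peak, all held the kappa B type letters. The windows differ in CG content, with an observed over expected CG ratio of 0.949 in CXCR4, 0.671 in CXCL1, 0.470 in CXCL8, 0.439 in CXCR2, 0.296 in IL6 and 0.134 in IL5RA, beside a median of 0.558 in the RefSeq table.

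Few members had a high CG ratio around their start. In the 1 kb centred on the canonical start the observed over expected CG ratio had a median of 0.251 over 132 members, against 0.730 over all genes, and 25 members (18.9%) reached 0.6, against 67.2% of genes. At members of high ratio a strict H3K4me3 peak was present at 15 of 25 (60%, 40.7 to 76.6%), against 76% of all such genes, and at members of low ratio at 25 of 107 (23.4%, 16.4 to 32.2%), against 29%. H3K27Ac was strict at 5 of 25 members of high ratio (20%, 8.86 to 39.1%), against 49.5%, and at 10 of 107 of low ratio (9.35%, 5.16 to 16.4%), against 12%. Among genes of low ratio the members' shares therefore lay within counting error of the background for both marks. From a ratio of 0.6 the H3K27Ac share lay below the background by more than counting error, and the H3K4me3 share did not. Among the named members the ratio was 0.968 at IL17D, 0.908 at IL4R, 0.861 at IL15RA, 0.854 at IL6ST, 0.827 at IL17RA, 0.749 at CXCR4, 0.730 at IL10RB and 0.621 at CXCL1. Low values stood at CCR1 (0.154), IL1B (0.163), IL36G (0.169) and IL1RN (0.267), although CCR1 and IL1RN carried strict peaks of both marks.

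**Figure D2:**
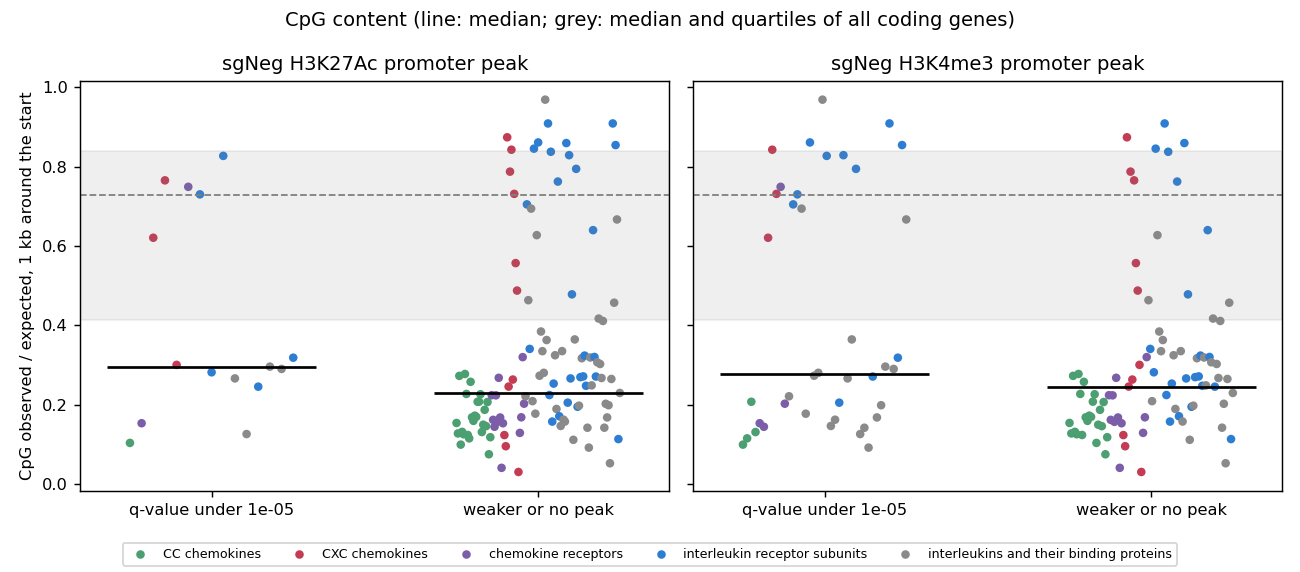
Observed over expected CG ratio in the 1 kb around the canonical start (vertical axis, no unit) of each member, split by whether it carried a strict sgNeg promoter peak of each mark; the grey line and band are the median and quartiles of all genes. Most members lie below the all-gene median of 0.730, and members with a strict H3K4me3 peak (median 0.277, upper quartile 0.730) reach 0.6 in 37.5% of cases and those without (median 0.246, upper quartile 0.324) in 10.9%.

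Among the chemokine receptors, CXCR4, the receptor of CXCL12 that holds hematopoietic cells in the bone marrow, was the most strongly marked in sgNeg. Its H3K27Ac peak (chr2:136868488-136877215, hg19) was 8728 bp wide at a fold enrichment of 5.42 (percentile 98.7, rank 4253), and its H3K4me3 peak (chr2:136116421-136118059, hg38) was 1639 bp wide at 9.78 (percentile 99.4, rank 1976). Both cover an annotated start, and neither sgNpm1A list holds a promoter peak at the gene. CCR1, a receptor of inflammatory CC chemokines such as CCL3 and CCL5, had a sgNeg H3K27Ac peak of 14412 bp (chr3:46244477-46258888, hg19) at 4.77 (percentile 97.9, width rank 312) and an H3K4me3 peak of 1455 bp at 6.66 (percentile 98.0), 617 bp from its start. In sgNpm1A the strongest H3K27Ac promoter peak of CCR1 was 728 bp wide at percentile 66.1, and no H3K4me3 peak was listed. The neighbouring CCR2, the CCL2 receptor of monocytes, had an H3K27Ac peak of 5864 bp at percentile 95.9 in sgNeg that missed the strict limit (q-value 0.000111), and no peak in the other 3 lists. CXCR2, the neutrophil receptor of CXCL8, was weakly marked, with H3K27Ac at percentile 88.0 in sgNeg and 48.1 in sgNpm1A, and H3K4me3 at 77.0 in sgNeg and none in sgNpm1A. The sgNeg peaks of CXCR2 were 3549 bp (H3K27Ac) and 5041 bp (H3K4me3) from its canonical start. Within 1 kb of that start only sgNeg H3K27Ac was listed, at percentile 76.9.

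Strict H3K27Ac peaks among the CXC chemokines were found at CXCL8, CXCL1 and CXCL2, neutrophil attractants that lie together on chromosome 4. CXCL8 had the widest strict peak of all members, 18247 bp (chr4:74591477-74609723, hg19; width rank 146 of 327715), at a fold of 6.29 (percentile 99.3), while its H3K4me3 peak was 151 bp wide at percentile 56.9 and 803 bp from the start. CXCL1 carried H3K27Ac over 8348 bp (chr4:74733648-74741995, hg19) at 6.36 (percentile 99.4) and H3K4me3 over 770 bp at 6.45 (percentile 97.8). For CXCL2 and CXCL3, named after their values were seen, the H3K27Ac percentiles were 97.6 and 93.8 and the H3K4me3 percentiles 77.0 and 96.2. None of these 4 genes had a promoter peak of either mark in sgNpm1A. Across all CXC chemokines 0 of 14 had an H3K4me3 promoter peak of any strength in sgNpm1A, which allows a share of up to 21.5% by the Wilson interval, beside 25.8% of all genes. In sgNeg it was 8 of 14 (57.1%), beside 78.1% of all genes. The interval takes genes as independent, but 6 of these lie in the CXCL8 to CXCL2 cluster on chromosome 4. On that chromosome H3K4me3 peaks per Mb numbered 49.7 in sgNeg and 13.5 in sgNpm1A, against 123.0 and 37.1 over the autosomes. The part of this low density in the CXC chemokine counts was not tested. The remaining CXC chemokines include CXCL12, the CXCR4 ligand, and the interferon-induced CXCL10, both without a promoter peak in any of the 4 lists.

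Strict marks were few among the CC chemokines. Their only strict H3K27Ac peak, assigned to CCL27, a skin chemokine, was 2086 bp wide at percentile 98.1, but it lay 1799 bp from the canonical start and within 1 kb of the start of another coding gene. CCL2, which draws monocytes, had H3K27Ac at percentile 59.7 in sgNeg and 22.9 in sgNpm1A and no H3K4me3 peak. CCL3, a macrophage inflammatory chemokine, had H3K27Ac at percentile 89.1 in sgNeg and nothing in the other lists. The strict H3K4me3 peaks stood at CCL14, CCL19, CCL24 and CCL28, between 214 and 484 bp wide, and 3 of the 4 (CCL19, CCL24 and CCL28) were more than 1 kb from the canonical start.

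**Figure D3:**
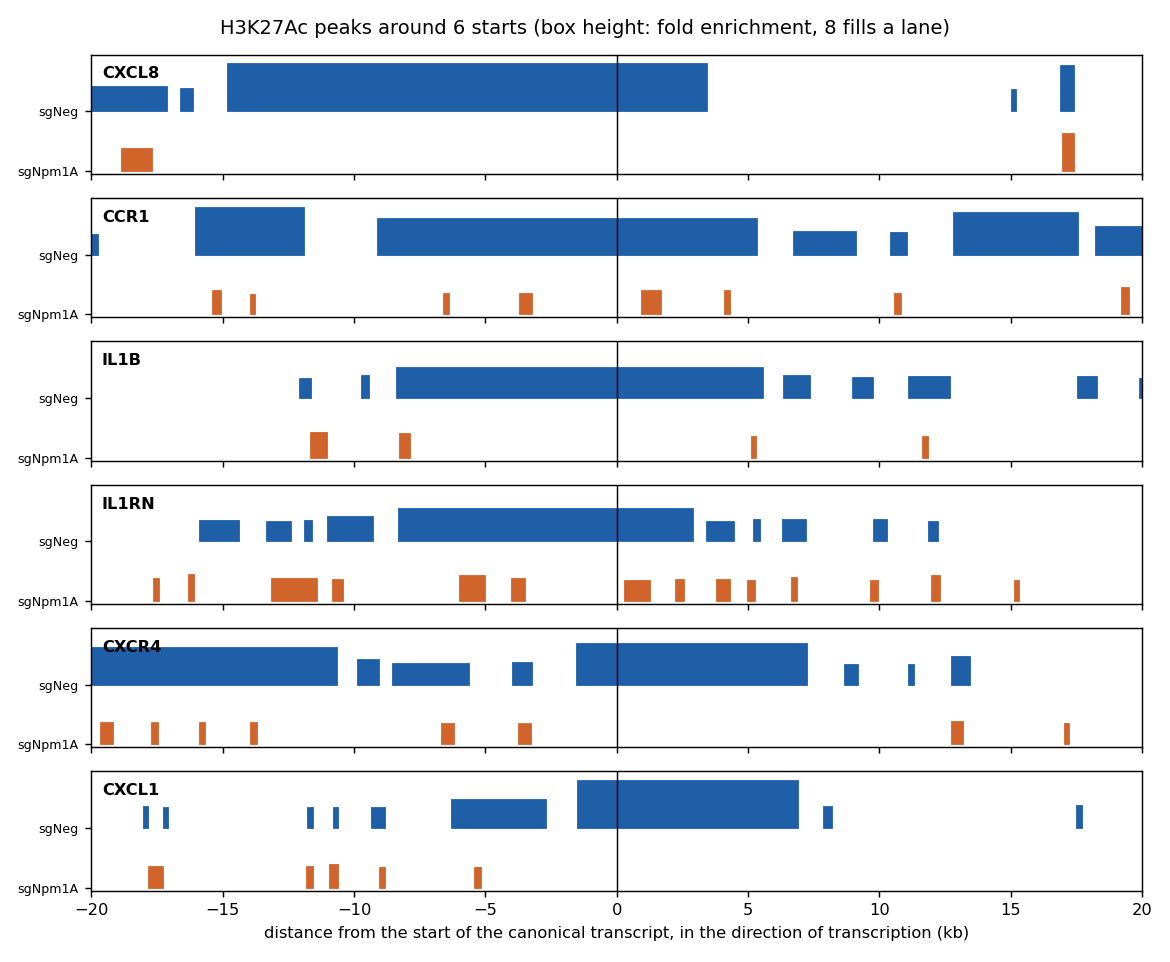
H3K27Ac peaks within 20 kb of the canonical start (0 on the horizontal axis, in kb) of 6 genes, in sgNeg and sgNpm1A; each box spans a listed peak and its height is the fold enrichment. In sgNeg, boxes up to 18247 bp wide stand over the starts, while the widest sgNpm1A box is 1714 bp (IL1RN) and the highest reaches 4.94 (CXCL8), away from the start.

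Among the interleukin receptor subunits IL17RA, a subunit of the receptor for IL17A, had the highest mean sgNeg percentile of both marks among all members. In sgNeg its H3K27Ac peak (chr22:17564458-17568536, hg19) was 4079 bp wide at 7.34 (percentile 99.7, rank 978) and its H3K4me3 peak (chr22:17085005-17087305, hg38) 2301 bp wide at 9.36 (percentile 99.3, width rank 394). In sgNpm1A H3K27Ac was listed at percentile 53.8 and H3K4me3 was not. IL10RB, the accessory subunit of the IL10 receptor, had 8142 bp of H3K27Ac at percentile 98.5 and 928 bp of H3K4me3 at 98.1, with no peak in either sgNpm1A list. IL10RA, the ligand-binding subunit, stood at 90.9 in sgNeg and 33.8 in sgNpm1A for H3K27Ac, and at 87.3 and none for H3K4me3. Its sgNeg H3K4me3 peak was 2997 bp from the canonical start. Within 1 kb of that start the sgNeg H3K4me3 percentile was 68.4, and neither sgNpm1A list held a peak. Both IL10 receptor subunits were thus listed higher in sgNeg for both marks.

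H3K4me3 was strict and H3K27Ac was not at several widely used subunits. IL6ST (gp130), the shared signalling subunit of the IL6 family, had H3K27Ac at percentile 92.3 in sgNeg and 44.1 in sgNpm1A, and H3K4me3 at 97.6 and none. IL4R, the IL4 receptor chain, had 93.2 and 39.0 for H3K27Ac and 97.8 and 78.7 for H3K4me3. The sgNpm1A peaks of IL6ST and IL4R lay at other starts, and within 1 kb of their canonical starts neither sgNpm1A list held a peak. IL15RA, which presents IL15, had 96.1 and 71.9 for H3K27Ac and 98.3 and 67.9 for H3K4me3, the sgNpm1A peaks lying 17235 and 17258 bp from the canonical start. IL1RAP, the accessory chain of the IL1 receptor and a known surface protein of leukemic stem cells, had 94.5 for H3K27Ac and 97.8 for H3K4me3 in sgNeg and no peak in sgNpm1A. In all 4 genes the sgNpm1A value was the lower one for both marks. A strict H3K27Ac peak of 5620 bp (percentile 98.9) was also present at IL31RA, 1174 bp from the canonical start, and 1 of 2446 bp (97.9) at IL12RB1. Neither had a sgNpm1A promoter peak. IL7R, the IL7 receptor chain, kept nearly the same H3K27Ac percentile (96.1 in sgNeg and 95.9 in sgNpm1A), but the sgNeg peak was 8481 bp wide and covered the canonical start, and the sgNpm1A peak was 762 bp wide and 4612 bp from it.

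For the interleukins and their antagonists the IL1 locus gave the widest 2 H3K27Ac regions. IL1RN, the IL1 receptor antagonist, had H3K27Ac over 11212 bp in sgNeg (percentile 97.3, width rank 603) and H3K4me3 over 1449 bp (97.3), against 280 bp at percentile 42.7 and 464 bp at 67.9 in sgNpm1A. Within 1 kb of the canonical IL1RN start the sgNpm1A H3K27Ac percentile was 12.8, and no sgNpm1A H3K4me3 peak was listed. IL1B, the inflammatory cytokine it opposes, had 13928 bp of H3K27Ac (chr2:113588784-113602711, hg19) at percentile 96.5, outside the strict limit with a q-value of 4.21e-05, and 1083 bp of H3K4me3 at 92.4. No promoter peak was listed for IL1B in sgNpm1A. IL17D had H3K4me3 at percentile 98.3 over 1159 bp and H3K27Ac at 84.8, again in sgNeg only. IL6 had a single weak H3K27Ac peak, at percentile 11.8 in sgNpm1A, and IL18 had no promoter peak in any list.

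Some strong peaks counted for these genes lie at the starts of other genes. The IL5RA peaks (H3K27Ac percentile 99.4, H3K4me3 98.5) were 15931 and 16675 bp from its canonical start and within 1 kb of that of TRNT1, a tRNA-processing enzyme gene. Within 1 kb of the canonical IL5RA start no list held a peak. The IL4I1 peaks (99.4 and 97.3) were 30466 and 31701 bp from the canonical start, at NUP62 and ATF5, and those of IL5 (97.8 and 94.9) were 13414 and 13545 bp away, at the DNA repair gene RAD50. IL23A, the IL23 subunit, shared its peaks (98.5 and 93.8) with PAN2, the H3K27Ac peak covering its own canonical start. Counted at the canonical start alone, a rule added after the data were seen, strict H3K27Ac peaks numbered 10 of 132 members (against 34.7% of genes) and strict H3K4me3 peaks 26 (54.1%). Members with both numbered 6, a count with no share over all genes given here, so nothing about the members is read from it.

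Where members were strictly marked, their H3K27Ac regions were wide. The median width of the strict sgNeg H3K27Ac promoter peak was 5620 bp over 15 members (range 977 to 18247 bp), against 2344 bp over 7079 genes, and 8 of the 15 (53.3%) reached 5 kb, against 16.8% of genes. For H3K4me3 the relation was the other way round, with a median of 420.5 bp over 40 members against 820 bp. The H3K27Ac width rested on the strict limit, with a member median of 2446 bp at a q-value under 0.001, where no all-gene width is given here. Over all listed sgNeg H3K27Ac promoter peaks the relation was reversed, with a median of 624.5 bp over 100 members against 1526 bp over 15618 genes. Members just inside the strict limit for H3K27Ac were CXCL2 (q-value 1.89e-06) and IL1RN (2.67e-06), and IL17RC (1.73e-05), IL27RA (2.90e-05) and IL1R2 (2.94e-05) were just outside it.

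**Figure D4:**
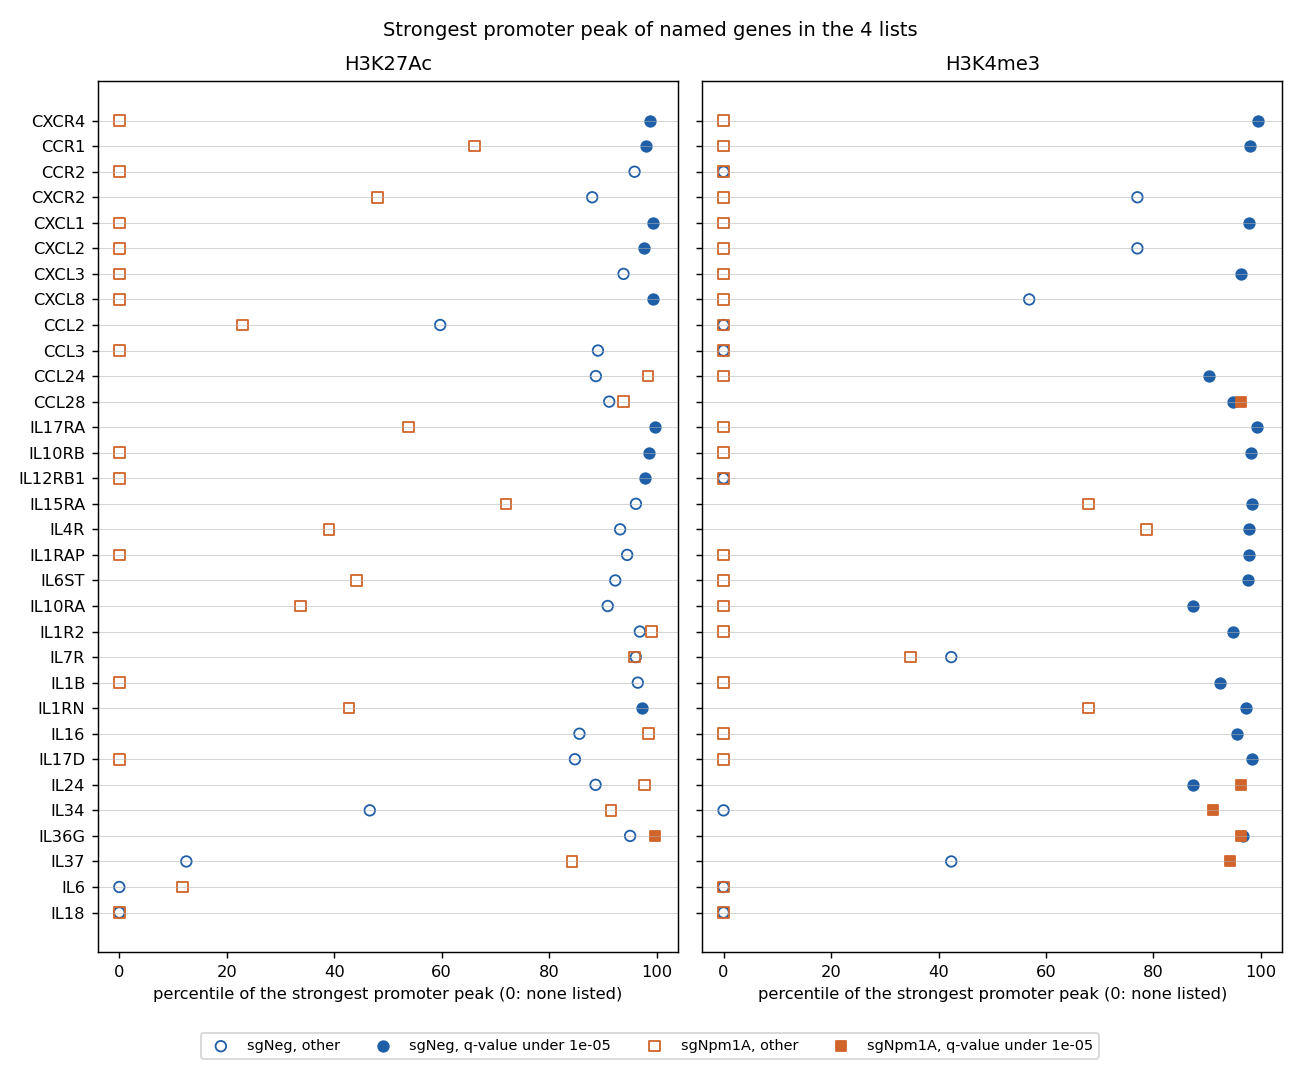
Percentile of the strongest promoter peak by fold enrichment (horizontal axis, 0 to 100, with an absent peak at 0) for 32 named members, circles for sgNeg and squares for sgNpm1A; filled symbols are strict peaks. The filled sgNeg circles crowd above percentile 87, and among the sgNpm1A squares only those of IL36G (both marks), IL24, CCL28, IL37 and IL34 (H3K4me3) are filled.

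The comparison of the guides asks what differed at these genes when mtNPM1 was targeted. After sgNpm1A an H3K27Ac promoter peak was listed at 83 of 135 members (61.5%, 53.1 to 69.3%), against 59.7% of all genes, and an H3K4me3 peak at 29 of 132 (22.0%, 15.8 to 29.8%), against 25.8%. Strict peaks were listed at 1 member for H3K27Ac (0.741%, 0.131 to 4.08%, against 0.941%) and 6 for H3K4me3 (4.55%, 2.1 to 9.56%, against 5.59%). These shares lay within counting error of the background. H3K27Ac was listed with both guides at 69 members (51.1%, against 54.6% of genes), with sgNeg alone at 31 (23.0%, against 26.6% of genes), with sgNpm1A alone at 14 (10.4%, against 5.04%) and with neither at 21 (15.6%, against 13.7%). H3K4me3 was listed with both at 24 (18.2%, against 24.2%), with sgNeg alone at 54 (40.9%, against 53.9%), with sgNpm1A alone at 5 (3.79%, against 1.52%) and with neither at 49 (37.1%, against 20.4%). Strict H3K27Ac was found with both guides at 0 members (against 0.556% of genes), with sgNeg alone at 15 (against 36.3%) and with sgNpm1A alone at 1 (against 0.385%). Strict H3K4me3 was found with both at 3 (CCL28, IL24 and IL36G, 2.27%, against 4.82%), with sgNeg alone at 37 (28.0%, against 55.7%) and with sgNpm1A alone at 3 (against 0.769%).

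The percentile of the strongest promoter peak was lower in sgNpm1A at 70 of 114 members with an H3K27Ac peak in either list and higher at 44, with a median difference (sgNpm1A minus sgNeg, an absent peak counted as 0) of -13.7 points, against -29.2 over all genes, of which 77.7% were lower. For H3K4me3 it was lower at 70 of 83 and higher at 13, with a median of -42.4 points, against -87.3 over all genes, of which 91.6% were lower. Weak H3K4me3 peaks were tied at a few percentiles, among them 11.8, 26.4, 42.4 and 56.9 in sgNeg. In sgNpm1A these were 16.4, 34.8, 53.1 and 67.9. The medians -42.4 and -87.3 each equal a tied sgNeg percentile set against an absent peak. The H3K27Ac difference moved to -77.2 points over members and -88.8 over all genes at a q-value under 0.01, to -67.4 and -91.6 where the guides' peaks had to overlap over 50% of both, to -28.3 and -80.8 at the canonical start and to -26.0 and -44.7 with an overlap of 1 bp. The members' median was nearer 0 than that of all genes under each of these settings and for both marks, and their median sgNeg percentile was also the lower one, 67.8 against 93.3 over all genes for H3K27Ac. Where both lists held a peak, the medians were -5.27 points over 69 members for H3K27Ac (-14.2 over all genes) and -7.57 over 24 for H3K4me3 (-15.3).

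By role, the H3K27Ac median difference was -62.1 points for CXC chemokines (lower at 7 of 9), -29.6 for chemokine receptors (11 of 14), -24.9 for receptor subunits (21 of 30), -10.3 for CC chemokines (14 of 24) and 7.41 for interleukins, which were lower at 17 of 37 and higher at 20. In H3K4me3 every role had a negative median, from -66.9 points for CXC chemokines (lower at 8 of 8) to -27.9 for interleukins (26 of 32). With absent peaks counted as 0, interleukins in H3K27Ac were the only role with a median above 0. Where both lists held a peak, the median was also above 0 for CC chemokines in H3K27Ac (2.68 points, 13 genes) and H3K4me3 (1.38, 1 gene) and for chemokine receptors in H3K4me3 (18.4, 2 genes).

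**Figure D5:**
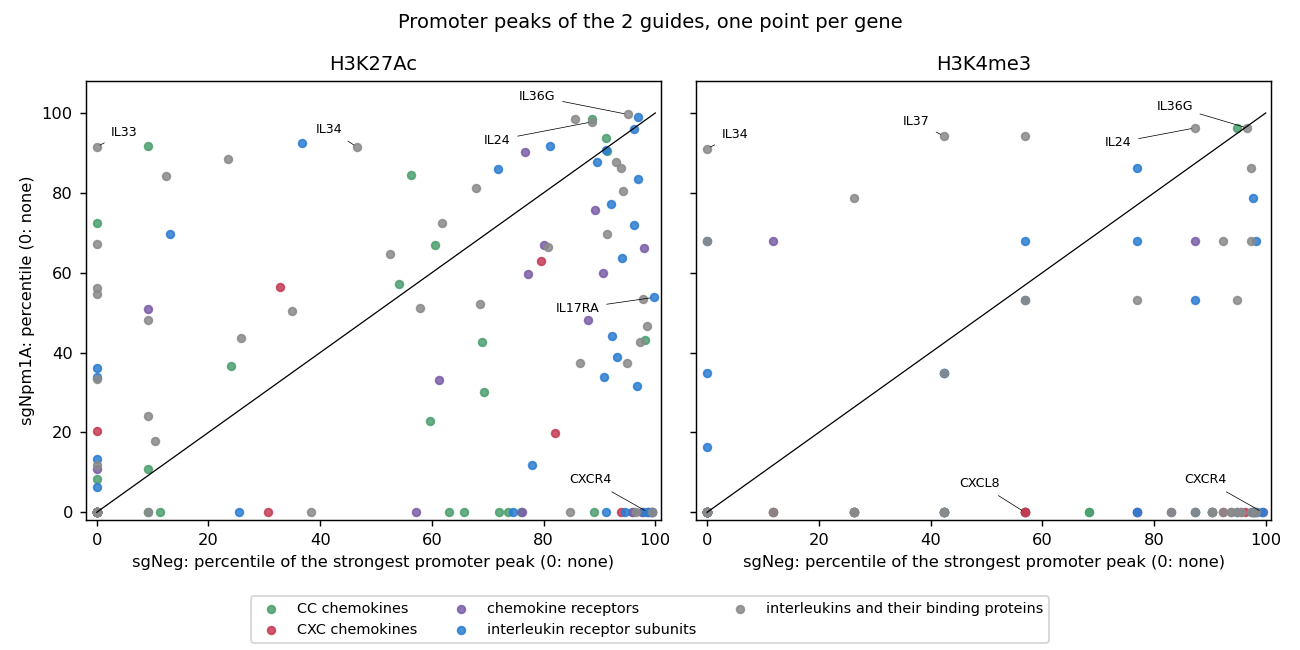
Percentile of the strongest promoter peak in sgNpm1A (vertical) against sgNeg (horizontal) for each member, for H3K27Ac and H3K4me3, with an absent peak at 0 (members without a peak in either list lie at the origin) and the diagonal marking equal values; colours give the roles. Points on the horizontal axis are members listed with sgNeg alone, 31 for H3K27Ac and 54 for H3K4me3, and those on the vertical axis, 14 and 5, are listed with sgNpm1A alone.

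At the loci strictly marked with H3K27Ac in sgNeg little of the region was listed after sgNpm1A. Of the 15 strict peaks, 9 (60%, against 62.6% of the strict promoter peaks of all genes) had no base under any sgNpm1A H3K27Ac peak: those of CXCL8, CXCL1, CXCL2, CXCR4, IL10RB, IL12RB1, IL5RA, IL5 and CCL27. The covered share of the other 6 was 29.9% at IL17RA, 23.1% at IL1RN, 18.9% at IL4I1, 11.0% at CCR1, 9.33% at IL23A and 2.54% at IL31RA. None reached 50%, which 348 of the 7079 strict promoter peaks of all genes did. For H3K4me3, 33 of 40 strict sgNeg peaks of members had no base under a sgNpm1A peak (82.5%, against 92.0% of all genes). Among these 40, 6 reached 50%, as did 630 of 11490 over all genes. Within 20 kb of the CXCR4 start the sgNpm1A H3K27Ac list still held 8 peaks, the widest of 470 bp and the strongest at a fold of 3.06, against 11110 bp and 5.42 among the 8 peaks of sgNeg. Around CXCL8 it held 2 peaks of up to 1165 bp and 4.94, against 5 of up to 18247 bp and 6.29. The stronger of these 2, of 404 bp, lay about where sgNeg had a peak of 510 bp at 6.09, from 16996 bp after the start. Around CXCR4 the sgNpm1A peaks were thus shorter and lower than the strongest sgNeg peak, and around CXCL8 a strong but short one was listed in both.

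Both sgNeg lists and neither sgNpm1A list held a promoter peak at 13 of 132 members (9.85%, against 22.1% of all genes). They were CXCR4, CXCL1, CXCL2, CXCL3, CXCL8, CCR4, IL1B, IL1RAP, IL10RB, IL15, IL17D, IL4I1 and IL5RA. All 4 lists held a peak at 24 members (18.2%, against 22.8%), which include IL1RN, IL4R, IL15RA, IL24, IL36G and CCL28, and no list at 14 (10.6%, against 10.5%). These 14 were CCL4, CCL3L3, CXCL10, CXCL12, CXCL17, CXCR1, IL2, IL4, IL9, IL18, IL22, IL26, IL1RL1 and IL22RA2.

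A smaller number of promoter peaks stood higher in sgNpm1A, and most of those named here are at interleukins. IL36G, an epithelial member of the IL1 family, was the only member with a strict H3K27Ac peak after sgNpm1A, at percentile 99.6 (fold 5.25, q-value 8.39e-08), against 95.1 in sgNeg (fold 3.74). Its H3K4me3 peak was strict with both guides, at 96.7 in sgNeg and 96.2 in sgNpm1A. The 4 IL36G peaks were 403 to 462 bp wide and lay 4383 to 4442 bp from the canonical start, over another annotated start. IL24, a cytokine of the IL10 family, stood at 88.6 and 97.8 for H3K27Ac and was strict with both guides for H3K4me3, at 87.3 and 96.2. CCL28, a mucosal chemokine, likewise had strict H3K4me3 peaks in both lists (94.9 and 96.2), the sgNeg peak 15071 bp from the canonical start and the sgNpm1A peak over it. For IL24 and CCL28 the H3K27Ac value was also the higher one in sgNpm1A (CCL28, 91.2 and 93.8). The H3K27Ac peak was 4963 bp wide in sgNeg and 1610 bp in sgNpm1A at IL24, and 428 and 616 bp at CCL28.

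Strict in sgNpm1A and not in sgNeg for H3K4me3 were IL37, IL1F10 and IL34. IL37, an inhibitory member of the IL1 family, stood at 42.4 in sgNeg and 94.2 in sgNpm1A for H3K4me3, and at 12.5 and 84.3 for H3K27Ac. IL1F10, of the same locus, stood at 56.9 and 94.2 for H3K4me3 and at 68.6 and 52.2 for H3K27Ac. IL34, a ligand of the CSF1 receptor, had no H3K4me3 peak in sgNeg and 1 at percentile 91.0 in sgNpm1A, and stood at 46.6 and 91.5 for H3K27Ac. The sgNpm1A value was the higher one for both marks at IL34, and for H3K4me3 alone at IL1F10. The H3K27Ac peak of IL34 was 2017 bp wide in sgNeg and 163 bp in sgNpm1A, and that of IL37 was 577 and 1429 bp wide. At IL37 the sgNpm1A peaks were 3078 bp (H3K4me3) and 4047 bp (H3K27Ac) from the canonical start, and within 1 kb of that start the H3K27Ac percentiles were 12.5 in sgNeg and 25.4 in sgNpm1A, while H3K4me3 was listed in sgNeg alone (26.4). Other high H3K27Ac values in sgNpm1A were those of IL1R2, the decoy receptor of IL1 (96.9 and 99.0, 10442 and 10450 bp from the canonical start), IL16, a T cell attractant (85.6 and 98.5), and CCL24, an eosinophil attractant (88.7 and 98.4). The IL16 peaks were 99278 bp (sgNeg) and 13692 bp (sgNpm1A) from the canonical start, at different starts, and those of CCL24 were 8426 and 8415 bp from it. In sgNeg and sgNpm1A these H3K27Ac peaks were 4138 and 245 bp wide at IL16, 162 and 849 bp at CCL24 and 412 and 600 bp at IL1R2. Within 1 kb of the canonical start H3K27Ac stood at 22.6 and 53.0 for IL16, and for CCL24 it was listed in sgNeg alone (84.3).

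Members listed with sgNpm1A alone stood lower. For H3K27Ac the highest 5 of the 14 were IL33 (percentile 91.5), CCL14 (72.5), IL25 (67.3), IL17C (56.2) and IL31 (54.6), the peak of IL33 lying 25476 bp from its canonical start. For H3K4me3 the 5 were IL34 (91.0), IL17A (67.9), IL20RB (67.9), IL2RA (34.8) and IL18RAP (16.4). Of these IL34, IL17A and IL18RAP had the peak at the canonical start, and that of IL2RA was 42184 bp from it. At the canonical start alone, strict sgNpm1A H3K4me3 peaks were left at CCL28, IL1F10, IL24 and IL34 (4 of 132, against 1.36% of genes), and strict H3K27Ac at 0 (against 0.279%).

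Along the 8 clusters in which 4 or more members lie together, taken with 10 kb on either side, the share under H3K27Ac peaks was lower in sgNpm1A in 7 and the share under H3K4me3 peaks in all 8. The CXCL8 to CXCL2 cluster was covered by H3K27Ac peaks over 13.8% of its length in sgNeg and 3.36% in sgNpm1A, and by H3K4me3 peaks over 1.49% and 0%. The CCL2 to CCL1 cluster was covered over 22.8% and 3.59% by H3K27Ac. The IL10 to IL24 cluster was the most covered with both guides, at 56.7% and 40.1%. In the IL11RA to CCL21 cluster the H3K27Ac share was not lower in sgNpm1A (24.3% and 25.8%), while the H3K4me3 share was (9.32% and 1.40%). Over all 8 clusters H3K27Ac covered 20.1% in sgNeg and 10.1% in sgNpm1A, against 7.61% and 6.75% of the autosomes, and H3K4me3 covered 3.68% and 1.81%, against 3.25% and 1.93%. Peak density was uneven between chromosomes with both guides: H3K4me3 peaks per Mb numbered 212 in sgNeg and 68.6 in sgNpm1A on chromosome 1, where IL10 and IL24 lie, 75.8 and 22.2 on chromosome 2, where the IL1 genes lie, and 123.0 and 37.1 over the autosomes. The part of this unevenness in the members' values was not tested.

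The other genes of these pathways, a list of 35 that holds JAK and STAT genes, SOCS genes, adaptors, NF-kappa B subunits and the remaining chemokines and receptors, held a larger share of strictly marked promoters than the members in control cells. Strict sgNeg peaks were present at 14 of 35 for H3K27Ac (40%, beside 36.8% of all genes) and 26 of 35 for H3K4me3 (74.3%, beside 60.5%), and in sgNpm1A at 0 and 0 (beside 0.941% and 5.59%), where 27 (77.1%, beside 59.7%) and 17 (48.6%, beside 25.8%) had any peak. The percentile was lower in sgNpm1A at 26 of 32 for H3K27Ac (median -24.0 points, beside -29.2 over all genes) and 29 of 31 for H3K4me3 (median -77.0, beside -87.3). JAK2 stood at H3K27Ac percentile 99.6 in sgNeg with no peak in sgNpm1A, NFKB1 at 99.8 and 44.8, and STAT6, the factor downstream of IL4R, at 99.8 and 97.7. The STAT6 peak was 3579 bp wide in sgNeg and 1098 bp in sgNpm1A, and strict in sgNeg alone. GNAI2, a G protein subunit used by chemokine receptors, was listed at 98.8 and 99.1 for H3K27Ac. Its sgNeg peak was strict and 14592 bp wide, while the sgNpm1A peak was 167 bp wide and not strict. For H3K4me3 GNAI2 stood at 99.8 and 78.7.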

How the data were processed

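H3K27Ac and H3K4me3 were profiled in OCI-AML3 cells with sgNeg or sgNpm1A, 1 library each; the 2 input libraries were not analysed here. According to the submitters' processing notes, bcl2fastq 2.17, Trimmomatic 0.33, Bowtie 1.1.2, MACS2 2.1.0 and deepTools were used, and hg38 is the build named. The coordinates of the H3K27Ac lists fit hg19 and those of the H3K4me3 lists fit hg38, so each list was read on its own build and no coordinates were converted. In the deposited files each peak has a score, a fold enrichment, which is a ratio of the sample over the expected background, a -log10 p-value and a -log10 q-value, as written by the authors' peak caller. The fold is averaged over the region for H3K27Ac (broad) and taken at the summit for H3K4me3 (narrow). The score was not used. The number of sequenced fragments is not given in the sources used here, so depth could not be set beside the peak counts.

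Transcript starts were those of GENCODE 44 on GRCh37, with the GRCh38 locations recorded in the same annotation. A promoter peak overlapped the 1 kb on either side of any start. The strongest peak by fold enrichment stood for a gene, ranked within its list. Strict peaks had a q-value under 1e-05. Shares have 95% Wilson intervals, and with 1 library per group no test was made. The same shares over all autosomal coding genes are the background. The members and lists were chosen with earlier results of these data known, and 1 gene of the family is not reported here. Named were the 10 members of highest sgNeg percentile and the 5 with the widest strict peaks per mark, those with both marks strict in sgNeg or any strict in sgNpm1A, the 5 highest in sgNpm1A and in sgNpm1A alone per mark, and 12 genes known in myeloid cells. Named besides, after their values were seen, were CXCL2, CXCL3, IL12RB1, IL7R, IL17RC, IL27RA, CCL5, CCL19, CCR4, IL15 and the members without a peak. IL36RN was counted with the interleukins, as an antagonist. Overlaps were computed in Python 3.11.15 with numpy 2.4.6 and pandas 2.3.3, intervals with SciPy 1.17.1 and figures with matplotlib 3.10.9. The overlap code was tested on simulated peaks and checked against bedtools 2.31.1. Alternatives were other q-value, fold and rank limits, windows of 500 and 2500 bp, other choices of start, overlap of at least 1 bp or 50% between the guides' peaks, and, chosen after seeing the data, the canonical start alone and peaks near no other coding start.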

Additional observations from a re-analysis of the deposited data

How the results depend on the processing

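No paired analysis was possible because each mark and guide has 1 library. Of 91 alternative values, 57 stayed within 1.5 times the reported value, 34 moved further and 0 reversed. A q-value under 0.01 gave 56 members with a sgNeg and 35 with a sgNpm1A H3K27Ac promoter peak (100 and 83 reported), an H3K27Ac median difference of -77.2 points (-13.7) and cluster cover of 11.7% and 3.63%. A fold of at least 4 gave 19 and 4 members for H3K27Ac and 38 and 10 for H3K4me3 (78 and 29 reported), and in place of the strict limit 4 and 10 members in sgNpm1A (1 and 6). The 20000 peaks of lowest p-value gave 28 and 7 members for H3K27Ac and 20 and 8 for H3K4me3. With a strict limit of 0.001 there were 31 members in sgNeg H3K27Ac (15 reported), 7 and 19 in sgNpm1A H3K27Ac and H3K4me3, and 24 with both marks in sgNeg (10), and the H3K27Ac width was 2446 bp (5620). A window of 2500 bp gave 46 members with a sgNpm1A H3K4me3 peak and 2 with a strict H3K27Ac peak, and a window of 500 bp an H3K27Ac difference of -23.0 points. With the start of the gene record alone 13 members had a sgNpm1A H3K4me3 peak, and the differences were -23.6 and -68.4 points for H3K27Ac and H3K4me3 (-42.4 reported). With the canonical start alone, chosen after seeing the data, these were 15 members and -28.3 points for H3K27Ac, with 26 strict in sgNeg H3K4me3 (40), 0 strict in sgNpm1A H3K27Ac and 6 with both marks. When sgNpm1A peaks had to overlap a sgNeg promoter peak by 1 bp the H3K27Ac difference was -26.0, and over 50% of both peaks the differences were -67.4 and -77.0. The cause of these changes was not tested beyond fewer or more peaks being counted. Peaks near no other coding start, also chosen after seeing the data, moved no count of strict members past 1.5 times. The strict sgNeg H3K27Ac count reached that limit, with 10 members (15 reported). Without replicates, counts that differ between the guides cannot be told apart from differences between 2 libraries, and a peak that is not listed may lie below the limit of the list.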
